A study of Mesocricetus auratus with 6 samples.

Results

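Collagens are secreted proteins built from chains that wind around one another into a helix, and each chain has its own gene. Fibrillar collagens assemble into the fibres of connective tissue once their end pieces have been removed, and lysyl oxidases then cross-link them. Type IV collagen forms the sheet of basement membranes, type VI collagen forms beaded filaments, and fibril-associated chains sit on the surface of fibres. In mice and rats the uterine stroma around an implanting embryo turns into decidua, a change known for remodelling of stromal collagen and for basement membrane proteins laid down around the decidual cells.

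The collagen chain genes were taken as all genes whose symbol has the form Col, a number, the letter a and a number, in probe sets that the platform annotation assigns to a single symbol. They numbered 36 of 12393 genes and were read by 58 of 22626 probe sets, and the probe set with the highest mean over the 6 arrays stood for its gene. The comparison asked which of them differ between 3 implantation sites and 3 interimplantation sites, the stretches of uterus between the embryos, of pregnant untreated golden hamsters (Mesocricetus auratus) on day 5. The RNA sets came from 3 animals. Strain and age of the animals, whether arrays of the same number share an animal, and whether the embryo was left in the implantation samples are not given in the sources used here. By type, 9 genes encode fibrillar chains (types I, II, III, V and XI), 8 basement membrane chains (types IV, XV and XVIII), 3 type VI chains and 16 other chains. Hamster genes in RefSeq (assembly BCM_Maur_2.0) carry 43 such symbols, all 36 among them, and the other 7 (Col6a5, Col6a6, Col8a2, Col23a1, Col24a1, Col27a1 and Col28a1) were not analysed here.

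Values are log2 signals of a mouse array, so mismatches between mouse probes and hamster RNA can dim a probe set and shrink its difference. Levels of different genes were therefore not compared. The array medians were 4.55 to 4.57. All 36 collagen genes were above the median of 27 Bacillus control probe sets (2.68), which match no hamster RNA, and 19 were above the brightest of these (5.79). The median control lay below every array median, so passing it does not show that a chain was detected. That brightest control lay above every array median, and 3294 of all 12393 genes exceeded it, so it is a strict cut and not a measured background. The hybridisation controls, added in fixed amount, averaged 6.64 ± 0.17 on implantation arrays and 7.03 ± 0.27 on interimplantation arrays (SD, n = 3 each), with overlap. Scaling to them raised every difference by 0.40 and the median of all genes to 0.38 from −0.020, so directions below are relative to the bulk of the genes. Of the uterine marker lists, smooth muscle averaged 5.21 to 5.42 at implantation sites and 5.60 to 5.80 between them, and epithelium 4.90 to 4.97 against 5.24 to 5.33. The stromal list was at 5.64 to 5.68 against 5.62 to 5.77, the endothelial list at 5.05 to 5.07 against 5.04 to 5.14, and the macrophage list at 4.83 to 4.87 against 4.84 to 4.98. In pieces of tissue, fewer cells of a type and less RNA per cell cannot be told apart.

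No collagen chain gene passed the test. With limma and Benjamini-Hochberg adjustment over all probe sets, 0 of 36 were higher and 0 lower at implantation sites at an adjusted p under 0.05, while 2.54% of all genes were called (1.36% higher, 1.18% lower). At an unadjusted p under 0.05, 2 collagen genes were higher (Col14a1 and Col18a1) and 2 lower (Col4a5 and Col7a1), together 11.1% of the 36, against 14.8% of all genes. Over the 58 collagen probe sets 5 were higher and 2 lower at that level, and the share among all probe sets was 14%. The arrays of both groups did not overlap for 4 of the 36 genes, and for 20.1% of all genes. The collagen shares rest on 36 genes, and no test of their difference from all genes was made. They are therefore not read as a property of the collagen genes.

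The differences were also small in size. They ran from −0.43 to 0.26, with 17 positive and 19 negative, and their median size regardless of sign was 0.094, against 0.090 for all genes. The 95% intervals of all 36 genes lay between −0.66 and 0.50, which is 1.58-fold lower to 1.41-fold higher. A difference of 0.33 to 0.50, depending on the standard error (SE) of the gene, would have been called. The plot of the 36 differences shows most intervals crossing 0 and 4 that do not.

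**Figure D1:**
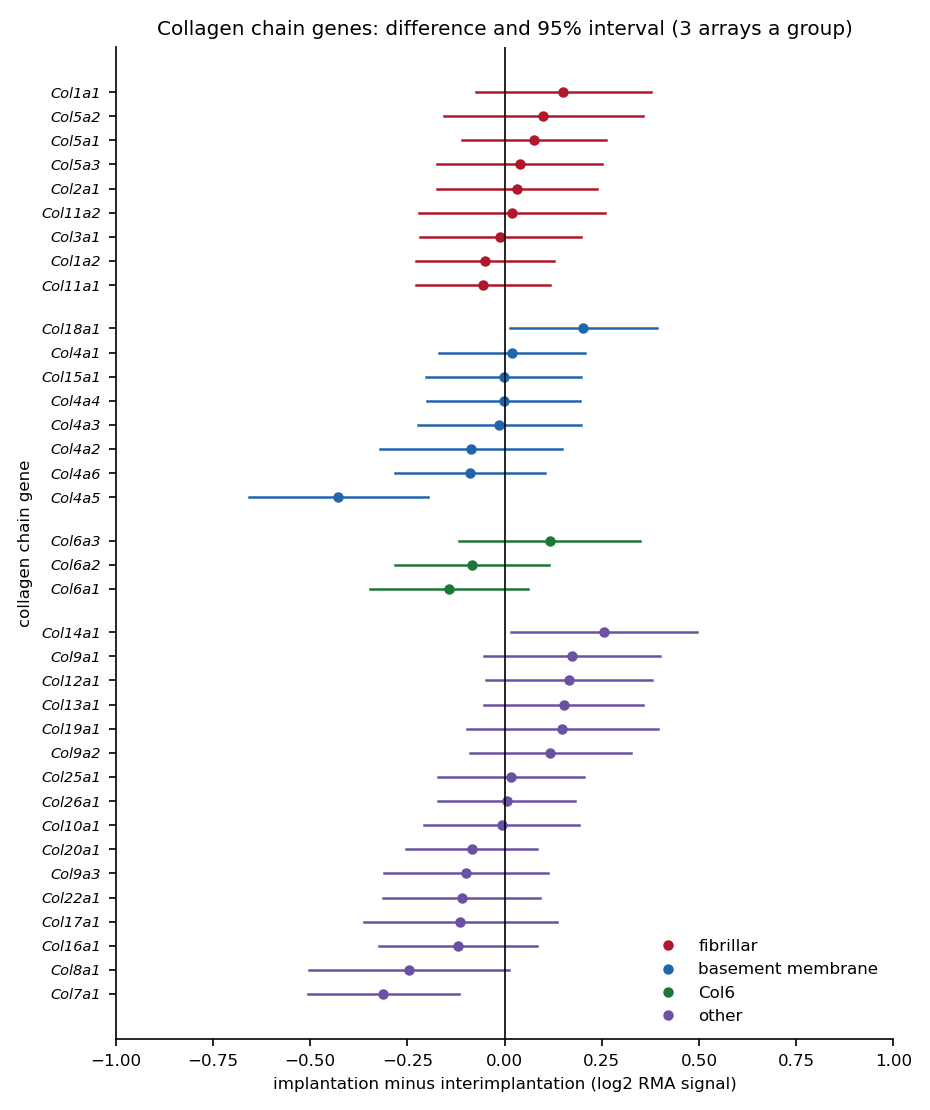
The horizontal axis gives the difference between implantation and interimplantation arrays (log2 RMA signal), points are the estimates of the limma fit and lines their 95% intervals, for 36 collagen chain genes grouped and coloured by type. Intervals lay between −0.66 and 0.50, and those of Col4a5, Col7a1, Col14a1 and Col18a1 did not include 0.

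Fibrillar chains, each by its probe set of highest mean, gave a median difference of 0.032, with 6 of 9 positive and no gene whose groups were apart. Col3a1 encodes the only chain of type III collagen, the fibre of soft, distensible tissues. It was at 10.47, 10.71 and 10.61 in implantation samples, against 10.48, 10.61 and 10.72 in interimplantation samples. The ranges nearly coincided, and the difference was −0.011 (SE 0.095, adjusted p = 0.977, 95% interval −0.22 to 0.20). Col1a2, a chain of type I collagen, the main fibre of most connective tissues, was at 7.48, 7.60 and 7.56 at implantation sites, against 7.55, 7.61 and 7.65 between them (difference −0.051, adjusted p = 0.842).

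Col1a1, the other chain of type I, was at 5.12, 5.36 and 5.52 at implantation sites, against 5.23, 5.16 and 5.16 between them. Implantation array 1 lay below all the interimplantation arrays and the other two above, and the difference of 0.15 was within the spread (SE 0.10, adjusted p = 0.580). The dimmer probe sets of both type I genes differed more. That of Col1a1 was at 3.77, 3.76 and 3.70 at implantation sites, against 3.36, 3.32 and 3.52 between them (difference 0.34, 95% interval 0.15 to 0.53, adjusted p = 0.0674). That of Col1a2 was at 5.59, 5.68 and 5.57 against 5.35, 5.33 and 5.56 (difference 0.20, adjusted p = 0.357). In both of these probe sets every implantation array lay above every interimplantation array, but neither passed the test, and for Col1a2 the brighter and dimmer probe sets had opposite signs.

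Type V chains, which join type I fibres and limit their width, had differences of 0.032 to 0.14 in the 7 probe sets of Col5a1, Col5a2 and Col5a3, and none was called. In a dimmer probe set of Col5a1 (0.14, adjusted p = 0.511) every implantation array lay above every interimplantation array. The brightest probe sets gave 0.076 for Col5a1 (adjusted p = 0.759), 0.10 for Col5a2 (adjusted p = 0.774) and 0.039 for Col5a3 (adjusted p = 0.907), each smaller than its SE of 0.085, 0.12 and 0.097. Col5a2 was at −0.033 without interimplantation array 1 and Col5a3 at −0.055 without implantation array 3. The cartilage collagens Col2a1 (0.032, adjusted p = 0.922), Col11a1 (−0.055, adjusted p = 0.822) and Col11a2 (0.019, adjusted p = 0.961) were not called either.

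**Figure D2:**
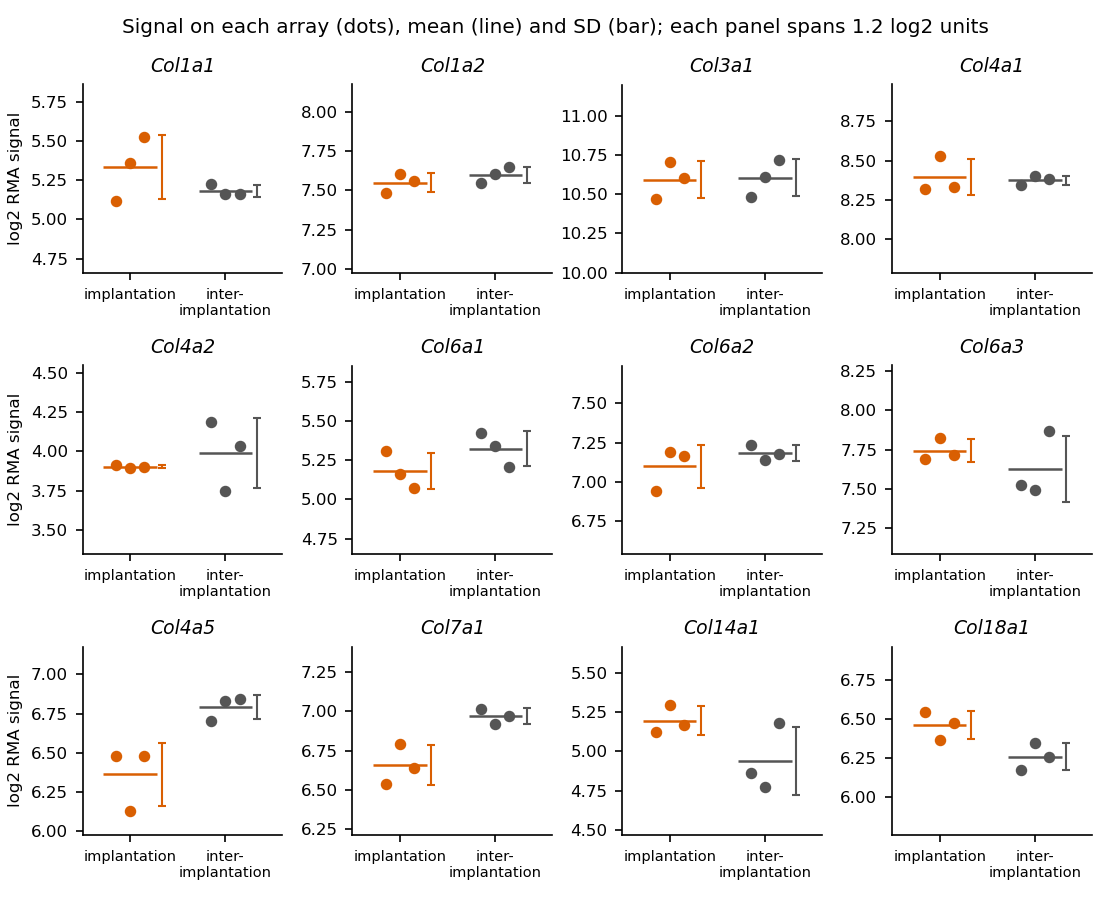
Each panel shows the log2 RMA signal of a collagen gene on the 3 implantation and 3 interimplantation arrays (dots), with the group mean (line) and SD (bar), and all panels span the same number of log2 units. Groups overlapped for Col1a1, Col1a2, Col3a1, Col4a1, Col4a2, the type VI genes and Col14a1, and were apart for Col4a5, Col7a1 and, narrowly, Col18a1.

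Basement membrane chains had a median difference of −0.0081, with 2 of 8 positive. Col4a1 and Col4a2 encode the chains of the type IV network found in nearly all basement membranes. Col4a1 was at 8.32, 8.53 and 8.33 at implantation sites, against 8.34, 8.40 and 8.38 between them (difference 0.019, 95% interval −0.17 to 0.21, adjusted p = 0.951). Its dimmer probe set was at −0.18 (adjusted p = 0.535). Col4a2 was at 3.91, 3.89 and 3.90, against 4.19, 3.75 and 4.03 (difference −0.087, adjusted p = 0.789), so the implantation arrays lay inside the range of the interimplantation arrays. Its only probe set was dim, with a mean of 3.95 below every array median, which limits what the lack of a difference shows. Col4a3 (−0.014, adjusted p = 0.970) and Col4a4 (−0.0027, adjusted p = 0.995), chains of specialised basement membranes such as that of the kidney glomerulus, differed less than their SE of 0.096 and 0.090.

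Col4a5 had the largest difference of the 36 genes. Its chain pairs with that of Col4a6 in basement membranes that include those of smooth muscle. Col4a5 was at 6.48, 6.13 and 6.48 at implantation sites, against 6.70, 6.83 and 6.84 between them. Every implantation array was lower, with array 2 the lowest, and the difference was −0.43 (SE 0.11, 95% interval −0.66 to −0.20), 1.34-fold lower. It missed the threshold over all probe sets (adjusted p = 0.0609). It passed in 3 other settings: an adjusted p of 0.0289 was found among the probe sets above the brightest Bacillus control, 0.0409 after interimplantation array 1 was left out, and 0.0452 when arrays were weighted by quality. It did not pass when any of the other 5 arrays was left out (adjusted p between 0.109 and 0.183, with the difference at −0.31 without implantation array 2) or with the hybridisation control level as a covariate (adjusted p = 0.335). Scaling to the hybridisation controls brought it to −0.030. Its other probe set, dim at a mean of 2.92, was at 0.073 (adjusted p = 0.832).

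Col4a6 was at −0.090 by its brighter probe set (adjusted p = 0.725) and −0.24 by the other (adjusted p = 0.374). On the same arrays 2 of 12 smooth muscle markers fell (Tagln at −1.26, adjusted p = 0.00343, and Actg2 at −1.74, adjusted p = 0.00621) while 1.18% of all genes were called lower. Differences were negative for 9 of the 12 markers, and for 6961 of all 12393 genes. Synpo2 (0.25, adjusted p = 0.220), Des (0.13, adjusted p = 0.671) and Myh11 (0.059, adjusted p = 0.836) were positive. The median of the list was −0.24, against −0.020 for all genes. The laminin chain Lama2, a partner of type IV collagen in muscle basement membranes, fell as well. It was at 5.33, 5.07 and 5.37 at implantation sites, against 5.60, 5.90 and 6.02 between them (difference −0.58, adjusted p = 0.0268). Leaving out any of the other 5 arrays, interimplantation array 1 apart, ended that call (adjusted p between 0.0630 and 0.115), and scaling to the hybridisation controls left Lama2 at −0.18. The part of smooth muscle in the values of Col4a5 and Lama2 was not tested.

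Types XV and XVIII stand at the outer face of basement membranes, and a piece cut from the type XVIII chain is endostatin, an inhibitor of vessel growth. Col18a1 was at 6.55, 6.37 and 6.48 at implantation sites, against 6.17, 6.34 and 6.26 between them. The groups were just apart, and the difference of 0.20 did not pass (SE 0.087, 95% interval 0.013 to 0.39, adjusted p = 0.318). Its other probe set gave −0.030 (adjusted p = 0.920), so the 2 probe sets differed in sign. The endothelial list had a median of −0.0053, with 0 of 12 markers called, and Vwf, with the smallest p of that list, was at −0.40 (adjusted p = 0.146). Col15a1 was at −0.0027 (adjusted p = 0.995).

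The type VI chains form one filament together and lie between cells and fibres. They had a median difference of −0.084. Col6a1 was at 5.31, 5.16 and 5.07 at implantation sites, against 5.42, 5.34 and 5.21 between them (difference −0.14, adjusted p = 0.556). Col6a2 was at 6.94, 7.19 and 7.17, against 7.24, 7.14 and 7.18 (difference −0.084, adjusted p = 0.753), with 0.041 by its other probe set. Col6a3 was at 7.69, 7.83 and 7.71, against 7.52, 7.49 and 7.87 (difference 0.12, adjusted p = 0.700). The groups overlapped for all 3 chains, and for Col6a3 the single highest value belonged to interimplantation array 3.

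Among the other chains, 8 were positive and 8 negative. Col7a1 encodes the anchoring fibrils that tie an epithelial basement membrane to the tissue beneath. It was at 6.54, 6.79 and 6.64 at implantation sites, against 7.02, 6.92 and 6.97 between them. All implantation arrays were lower, by 1.24-fold on average (difference −0.31, SE 0.089, 95% interval −0.51 to −0.12), and the gene did not pass (adjusted p = 0.112). It passed among the probe sets above the brightest Bacillus control (adjusted p = 0.0483). It did not pass when any single array was left out (adjusted p between 0.0929 and 0.397) or when the control level entered the fit (adjusted p = 0.287), and turned to 0.085 once arrays were scaled to the hybridisation controls.

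Of the epithelial markers measured beside it, 2 of 14 fell (Cd24a at −1.99, adjusted p = 6.74e-07, and Cldn7 at −0.78, adjusted p = 0.00868) against 1.18% of all genes called lower. Differences were negative for 13 of the 14, and for 6961 of all 12393 genes, and the list had a median of −0.19. The part of epithelium in the value of Col7a1 was not tested. Col17a1, a transmembrane collagen that fastens epithelial cells to the basement membrane, was at −0.11 (adjusted p = 0.729) by a dim probe set with a mean of 2.99.

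Fibril-associated chains, of which 9 were measured, had a median of 0.12 with 5 positive. Col14a1, which binds type I fibres, was at 5.12, 5.30 and 5.17 at implantation sites, against 4.86, 4.78 and 5.18 between them. Interimplantation array 3 lay above 2 of the implantation arrays, and the difference was 0.26 (95% interval 0.018 to 0.50, adjusted p = 0.315). Its other probe set was at 4.89, 4.63 and 4.67, against 4.55, 4.43 and 4.38, with a like difference of 0.28 (adjusted p = 0.180). Here the groups did not overlap, and Col14a1 was the only gene at an unadjusted p under 0.05 in 2 probe sets.

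Col12a1, a near relative that also coats type I fibres, was at 0.17 (adjusted p = 0.503). None of the type IX chains, known from cartilage, was called: Col9a1 was at 0.17 (adjusted p = 0.507), Col9a2 at 0.12 (adjusted p = 0.653) and Col9a3 at −0.099 (adjusted p = 0.722). Col16a1 (−0.12, adjusted p = 0.638), Col19a1 (0.15, adjusted p = 0.627) and Col22a1 (−0.11, adjusted p = 0.671) were not called. Col20a1 was at 5.912, 5.890 and 5.927 at implantation sites, against 5.966, 5.995 and 6.022 between them. These groups did not overlap because the arrays of each were close together, and the difference of −0.085 was about as large as its SE of 0.0775 (adjusted p = 0.699).

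The remaining chains showed no difference that passed. Col8a1, a network-forming chain of vessels and the cornea, was at −0.25 (adjusted p = 0.387). Its interimplantation array 1, at 4.58, stood above arrays 2 and 3 at 4.14 and 4.13, and the implantation arrays were at 3.98, 4.01 and 4.13. Without that array the difference was −0.10. Col10a1, of growth plate cartilage, was at −0.0070 (adjusted p = 0.986). The transmembrane collagens Col13a1, of nerve-muscle contacts, and Col25a1, of neurons, were at 0.15 (adjusted p = 0.526) and 0.016 (adjusted p = 0.958), and Col26a1 was at 0.0054 (adjusted p = 0.988).

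Of the 36 genes, 19 had more than one probe set, and in 11 of these 19 all probe sets had the same sign. The plot of the brighter against the other probe sets shows the gaps. The widest gap was that of Col4a5 (−0.43 and 0.073), followed by Col8a1 (−0.25 and 0.0096), Col1a2 (−0.051 and 0.20) and Col18a1 (0.20 and −0.030). Where the signs differed, each gene had a probe set with a difference smaller than its SE. Why the signs differed was not tested. The mean over the probe sets of a gene left 0 collagen genes called, with Col7a1, which has a single probe set, at the lowest adjusted p (0.0868), Col14a1 at 0.27 (adjusted p = 0.0995) and Col4a5 at −0.18 (adjusted p = 0.306).

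**Figure D3:**
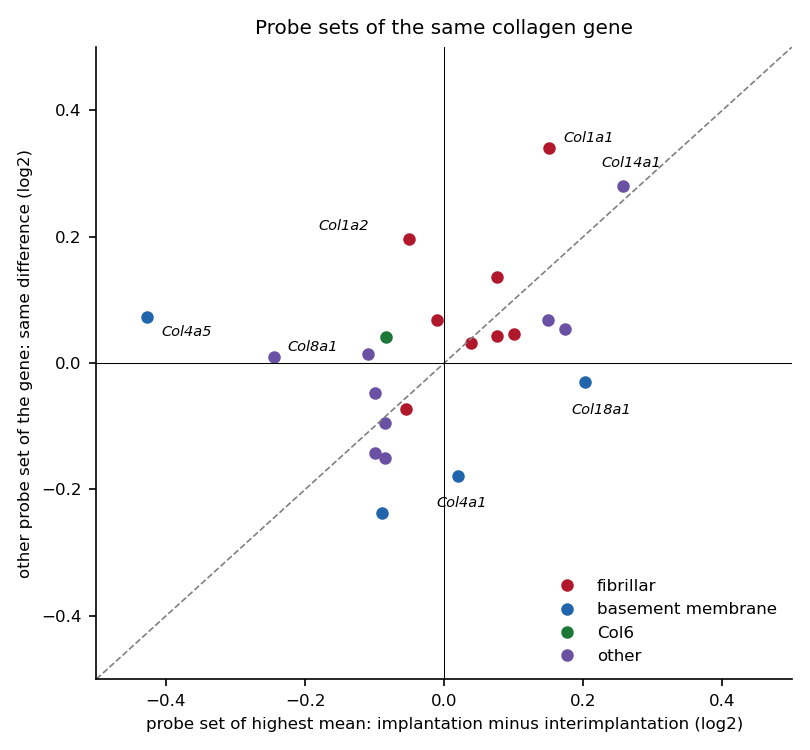
Each of the 22 points is a further probe set of a collagen gene. The horizontal axis gives the difference, implantation minus interimplantation (log2), of the gene's probe set of highest mean, the vertical axis that of the further probe set, and the dashed line marks equal values. Col14a1 lies near the line at 0.26 and 0.28, and Col4a5 far from it at −0.43 and 0.073.

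Genes that act on collagen chains were set beside them. Of 104 listed symbols of partner genes, with Ccn2 listed also under its older symbol Ctgf, 87 were measured. Of these 4 rose and 1, Lama2, fell, while 1.36% of all genes were called higher and 1.18% lower. The 4 were 2 of 15 genes of collagen folding and hydroxylation and 2 of 9 of procollagen processing and cross-linking. Serpinh1, the collagen chaperone Hsp47 of the endoplasmic reticulum, was at 8.10, 8.21 and 8.19 at implantation sites, against 7.55, 7.51 and 7.46 between them (difference 0.66, SE 0.080, adjusted p = 0.00145). P4ha1, a subunit of the enzyme that hydroxylates prolines of the helix, was at 4.64, 4.68 and 4.80, against 4.13, 4.16 and 4.23 (difference 0.53, SE 0.084, adjusted p = 0.00584). For both genes all implantation arrays were higher by a wide margin relative to the spread. The difference of P4ha2, at 0.53, just missed the threshold (adjusted p = 0.0537).

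Loxl1, a lysyl oxidase, was at 7.09, 7.52 and 7.08 at implantation sites, against 6.31, 6.38 and 6.50 between them (difference 0.83, SE 0.12, adjusted p = 0.00324). Pcolce, which speeds the removal of the end piece of fibrillar procollagens, was at 7.23, 7.46 and 7.16, against 6.79, 6.77 and 6.86 (difference 0.48, SE 0.095, adjusted p = 0.0221). The other probe sets of Pcolce (0.66, adjusted p = 0.00389) and Serpinh1 (0.56, adjusted p = 0.0173) were also called, and that of P4ha1 was at 0.24 (adjusted p = 0.256). Pcolce was not called once implantation array 1 or 2, or interimplantation array 2 or 3, was left out (adjusted p between 0.0541 and 0.0843). With the hybridisation control level as a covariate, Loxl1, P4ha1 and Pcolce were not called (adjusted p = 0.0947, 0.0664 and 0.222) and Serpinh1 was. The median difference was 0.047 for the processing list and 0.042 for the folding list, against −0.020 for all genes. At an unadjusted p under 0.05, 4 of 9 processing and 4 of 15 folding genes were higher and none lower, against 14.8% of all genes in either direction. Besides the genes above these were Lox, the founding lysyl oxidase (0.25, adjusted p = 0.160), Pcolce2, a relative of Pcolce (0.29, adjusted p = 0.187), and P3h1, a prolyl 3-hydroxylase (0.20, adjusted p = 0.328), which did not pass. Groups were apart for 5 genes of each list, 4 with a positive and 1 with a negative difference, against 20.1% of all genes. The negative ones were Bmp1 (−0.12, adjusted p = 0.560) and Crtap (−0.15, adjusted p = 0.509). Differences were negative for 2 of 9 processing and 5 of 15 folding genes. The mean level of the processing list was 5.43 to 5.61 at implantation sites and 5.24 to 5.34 between them, and that of the folding list 5.50 to 5.51 against 5.31 to 5.41.

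The other partner lists held no further call. Fibril-binding proteoglycans and glycoproteins had 0 of 20 called and a median of −0.063, with Dpt, a small protein that binds decorin and fibres, at the smallest p (−0.30, adjusted p = 0.172). Dcn, the proteoglycan decorin, was at −0.049 (adjusted p = 0.894), and Fn1, fibronectin, at 0.026 (adjusted p = 0.931). Basement membrane partners had 1 of 15 called and a median of 0.0065, and Lamc1, the laminin chain common to most laminins, was at 0.33 (adjusted p = 0.0895). Collagen receptors had 0 of 8 called, with Cd36 at −0.31 (adjusted p = 0.136). Transcription factors and growth factor signals that act on collagen genes had 0 of 20 called, with Sp3 at −0.37 (adjusted p = 0.150). Of the uterine stroma and macrophage markers 0 of 12 each were called, and Hand2 (0.58, adjusted p = 0.0685) and Cd68 (0.38, adjusted p = 0.140) had the smallest p. Most members went the other way: 7 of 12 stromal and 8 of 12 macrophage differences were negative, as were 6961 of all 12393. The medians were −0.075 for stroma and −0.041 for macrophages, against −0.020 for all genes.

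**Figure D4:**
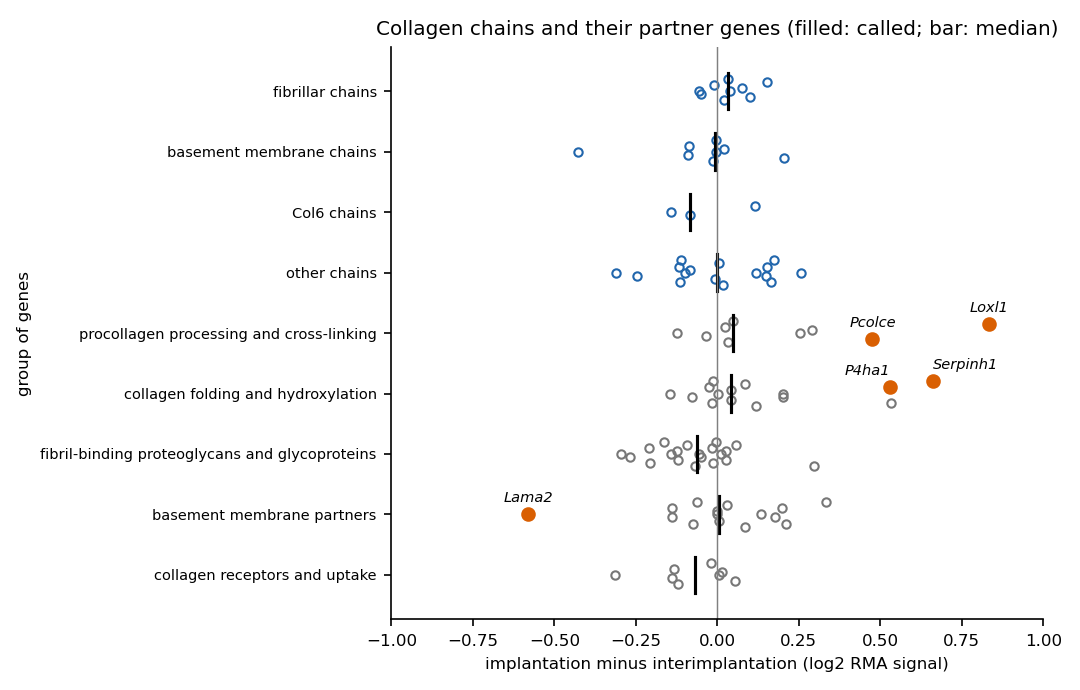
The horizontal axis gives the difference, implantation minus interimplantation (log2 RMA signal), of each gene. Rows are the 4 types of collagen chains and 5 lists of partner genes, filled points are genes called at an adjusted p under 0.05, and the bar is the median of the row. No collagen chain is filled, and Loxl1, Pcolce, Serpinh1 and P4ha1 lie at 0.48 to 0.83.

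The order of the arrays was looked at gene by gene. Interimplantation array 3 was the highest of the 6 for 9 of the 36 collagen genes and interimplantation array 2 for 2, whereas over all genes these arrays were the highest in 18.3% and 22.6%. Implantation array 1 was the lowest for 11 collagen genes and implantation array 3 for 3, and over all genes for 19.5% and 12.9%. No test was made of these counts.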

How the data were processed

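The deposited table held 22690 probe sets on 6 arrays as log2 values, 1 per probe set and array, which the authors obtained by RMA (as usually run, a background correction, quantile normalization and summary of probes) in Partek 6.6, per the submitters' processing notes. The log base and the order of steps are not given in the sources used here; base 2 follows from RMA's usual output and the range of the values. The 64 control probe sets were left out. Of the other 22626, 20380 had 1 gene symbol in the platform annotation, 691 several and 1555 none.

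The comparison used limma 3.58.1 under R 4.3.3 (lmFit, then eBayes, group as the only term, two-sided), with Benjamini-Hochberg adjustment over 22626 probe sets and calls at an adjusted p under 0.05. No filter on level was used. All adjusted p-values in the text come from this fit unless another setting is named. The calculation was checked on simulated data. The number of arrays limits the precision, and an exact permutation test of 3 against 3 arrays cannot go below p = 0.1. List levels are means over the genes of a list. The members, the partner and marker lists, the rule for named genes and the alternatives were chosen with earlier results of these data known. Every collagen gene is named. Values per array are given for genes at an unadjusted p under 0.05 or with groups apart and for the main chains of types I, III, IV and VI. From each list the called members or the one with the smallest p are given. P4ha2, P3h1, Lox, Pcolce2, Bmp1, Crtap, Dcn, Fn1, Lamc1, Synpo2, Des and Myh11, and the arrays of Col8a1, were added after their values were seen. Alternatives were leaving out each array, the replicate number as a block, other variance models, weights, normalizations, controls and filters, and other choices of probe set.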

Additional observations from a re-analysis of the deposited data

How the results depend on the processing

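The count of collagen genes called higher stayed at 0 in all alternatives but the unadjusted p under 0.05, which gave 2 higher and 2 lower. The count called lower was 0 to 1 when single arrays were left out, 1 with array weights and 2 among the probe sets above the brightest Bacillus control, where fewer genes were tested. Without 1 array, the median difference ran from −0.033 to 0.077 for fibrillar, −0.069 to 0.022 for basement membrane, −0.13 to −0.0054 for type VI and −0.034 to 0.017 for other chains. With scaling to the hybridisation controls these medians were 0.43, 0.39, 0.31 and 0.40 (all genes 0.38), 18 of 36 genes changed sign by construction, and Col7a1 was at 0.085. The control level as a covariate gave −0.091 for basement membrane chains. Above the brightest control, type VI was at 0.016 and other chains at −0.085; without shared probe sets type VI was at −0.013 and Col18a1 at −0.030, and averaging all probe sets of each gene put type VI at −0.022. Partner genes called higher numbered 8 with the scaling, 1 with the covariate, 2 without shared probe sets and 11 at the unadjusted p; those called lower numbered 0 to 1 without 1 array, 0 with the scaling, the covariate or above the brightest control, and 7 at the unadjusted p. The partner alternatives were chosen after seeing the data. Arrays of the same number shared no deviations (r = −0.090, 0.071 and −0.028 across probe sets), so the numbers were not taken as pairs. Arrays of different numbers gave r from −0.093 to 0.101, the highest for implantation array 3 with interimplantation array 1. Which arrays share an animal is not given, so pairs by animal could not be fitted, and the main fit takes all arrays as independent. With the replicate block 0 collagen genes were called and Col4a5 was at an adjusted p of 0.0630. The cause of these changes was not tested where the alternative itself does not show it. Dim probe sets limit the chains read below the brightest Bacillus control (17 of 36), among them Col1a1, Col4a2, Col6a1 and Col17a1.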
